A study of Homo sapiens with 4 samples.

Results

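The transcripts of 10 genes of the JAK-STAT pathway were followed in THP1 cells, a human monoblastic AML cell line that carries the fusion gene MLL-AF9. They are the Janus kinase genes JAK1, JAK2, JAK3 and TYK2, the STAT genes STAT3, STAT5A, STAT5B and STAT6, and the inhibitor genes SOCS1 and SOCS3. Every probe named for one of these genes was taken, and the array held 12 such probes among 34127 non-control probes. JAK3 and STAT3 had 2 probes each and the other genes had 1. The rule that picked the probes used gene names only, with no measured value in it. The genes themselves were chosen with earlier results of these data known.

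The THP1 cells had been transfected once with 30 nM of a synthetic mimic of the miRNA miR-511-5p (2 arrays) or with 30 nM of negative control #1 mimic (2 arrays), and RNA was taken on day 2. Both treatments were transfections, and both were followed by culture in DMEM/Ham's F12 medium with little serum. Each of 2 independent experiments gave 1 array per treatment, on a single-dye Agilent human array of 60-base probes, and all arrays lay on 1 slide. The 2 arrays of a treatment are thus 1 array from each experiment, and no untransfected cells were analysed here.

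Janus kinases are held at the inner end of cytokine receptors, and a bound cytokine brings them together so that they phosphorylate each other and the receptor. STAT proteins dock on the phosphorylated receptor, are phosphorylated in turn, and enter the nucleus as dimers that bind DNA. SOCS proteins are made in answer to this signal and block the kinases or the receptor, which closes a negative feedback loop. In monocytic cells the pathway carries the signals of interferons, interleukins and colony stimulating factors. The arrays measured transcripts only. Phosphorylation, the step that activates JAK and STAT proteins, is not seen on them.

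The mimic supplies the mature miRNA whose 21 bases are given here from RefSeq (GRCh38.p14, chr10:17845122-17845142, plus strand), with the seed, bases 2 to 8, in capitals. The seed is the stretch with which a miRNA mainly pairs to its targets.
hsa-miR-511-5p: gUGUCUUUugcucugcaguca
The letters that pair with this seed are AAAGACA. None of the 12 probes held them on either strand, while 331 of all 34127 probes (0.97%) did on the strand as printed and 332 (0.973%) on the other. This describes only the 60 bases of each probe. The rest of the transcripts was not searched.

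The results below turn mainly on the probes of STAT3, JAK3 and SOCS3, and on STAT5A and STAT5B as a pair of closely related genes, so the central 30 bases (16 to 45) of these probes are shown.
STAT3, first probe: tgaaatcatcatgggctataagatcatgga
STAT3, second probe: ctgtttgttaaatcaaattagctggtctct
JAK3, first probe: gagggggctctggaaatgtttgttgactga
JAK3, second probe: gagtcctggcccaaagaagcaaggaaccaa
SOCS3: caaagtattctgtgtcaggtattgggctgg
STAT5A: ttgtcgacaaagaggtagaaaagattgggt
STAT5B: caaagttgtgtattttatgttacaataaag
The probes read different stretches. In the hg19 coordinates of the files the STAT3 probes lie at chr17:40474404-40474463 (first) and chr17:40465923-40465982 (second), both on the minus strand, with 8421 bases between them. Those of JAK3 lie at chr19:17935597-17935656 (first) and chr19:17937280-17937339 (second), also on the minus strand and 1623 bases apart. SOCS3 was probed at chr17:76353127-76353186 (minus), STAT5A at chr17:40463483-40463542 (plus) and STAT5B at chr17:40351196-40351255 (minus). The STAT3, STAT5A and STAT5B probes thus fall within 123.3 kb of chromosome 17. STAT5A and STAT5B are closely alike, and the longest run of bases that their probes shared was 6. Of the 12 probes, the longest run that any shared with a probe of another gene on the array was 15 of 60 bases. Probes were compared with probes only. Whether the STAT5A probe also matches the STAT5B transcript, or the reverse, was not tested, so these runs do not show that the probes tell the genes apart.

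The other probes lay at chr1:65299773-65299832 (JAK1, minus), chr9:5127355-5127414 (JAK2, plus), chr12:57489651-57489710 (STAT6, minus) and chr16:11348384-11348443 (SOCS1, minus). The TYK2 probe was given as chr19:10464877-10465213 on the minus strand, a span of 337 bases for 60 bases of probe, so its letters come from more than one block of the genome. Whether a probe lies in coding sequence or in an untranslated region was not analysed here.

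Across the arrays, 64.8% to 69.3% of probes were well above background. Of 9 monoblastic line markers on the array, CD33, MPO, CSF1R, SPI1, CEBPA, ITGB2, CD4 and HOXA9 were well above background on all 4 arrays, and MEIS1 on 2 at most. Defining markers of epithelial cells and of fibroblasts (4 and 3 probes) were well above background on 0 arrays, as were the T cell marker CD3G and the B cell marker MS4A1, whereas CD3D, CD79A, PAX5 and the endothelial markers PECAM1, VWF and CDH5 were so on all 4. Values given below are log2 intensities after quantile normalisation between arrays, which sets the overall distribution of each array equal. A difference is said to pass where limma's unadjusted p was below 0.05, standard errors (SE) and 95% intervals are those of the same fit, and a treatment difference is miR-511 mimic minus control mimic. In bulk RNA a lower level in every cell and a smaller number of expressing cells cannot be told apart.

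All 12 probes were well above background on all 4 arrays, and all were among the 22638 probes (66.3%) that were tested. Thus transcripts of all 4 Janus kinases, of all 4 STATs and of both SOCS genes were detected with either mimic. The dimmest values, 4.76 to 5.36 for the JAK3 second probe on the 4 arrays, still lay above the lowest log2 signals counted as well above background (2.99 to 3.44 per array). The values of the kinases are described first, then those of the STATs and the inhibitors.

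JAK1, which serves interferon receptors and those of the IL-6 and common gamma chain families, had normalised log2 intensities of 7.88 and 7.84 with the control mimic and 7.54 and 7.84 with miR-511 mimic (experiments 1 and 2). The single low array was that of miR-511 mimic in experiment 1, and the other 3 lay together. The difference, miR-511 mimic minus control mimic, was -0.34 in experiment 1 and 0.00 in experiment 2. Its mean of -0.17 (SE 0.14) had a 95% interval of -0.54 to 0.20 and did not pass the test.

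JAK2, the kinase of the erythropoietin, thrombopoietin and GM-CSF receptors, had values of 10.01 and 9.65 with the control mimic and 10.03 and 9.80 with miR-511 mimic. Both arrays of experiment 1 were above both of experiment 2, and the treatments overlapped. The treatment difference was 0.08 (SE 0.17, 95% interval -0.38 to 0.55).

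JAK3, which pairs with the common gamma chain of the interleukin-2 receptor family, had 2 probes that went opposite ways. The first gave 9.97 and 9.94 with the control mimic and 9.83 and 9.78 with miR-511 mimic. Both control arrays were above both miR-511 arrays. The difference was -0.14 in experiment 1 and -0.16 in experiment 2, with a mean of -0.15 (SE 0.09, 95% interval -0.40 to 0.10).

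The second JAK3 probe gave 4.76 and 5.32 with the control mimic and 5.33 and 5.36 with miR-511 mimic. Here the control array of experiment 1 was low and the other arrays lay close together, so that the groups did not overlap but by little. The difference was 0.58 in experiment 1, 0.04 in experiment 2 and 0.31 on average (SE 0.21, 95% interval -0.28 to 0.90). The scanner intensities behind this probe were small, between 29.4 and 44.7 units over the 4 arrays before normalisation. Without the control array of experiment 2 the difference was 0.59 and passed, and without that of experiment 1 it was 0.03. Since the probes disagree, no direction can be given for JAK3 as a gene.

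TYK2, which works with JAK1 or JAK2 at the interferon, IL-10 and IL-12 receptors, had values of 8.91 and 9.32 with the control mimic and 9.08 and 8.95 with miR-511 mimic. The control arrays were the lowest and the highest of the 4. The difference changed its sign between the experiments, from 0.17 to -0.37, and averaged -0.10 (SE 0.17, 95% interval -0.57 to 0.37).

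**Figure D1:**
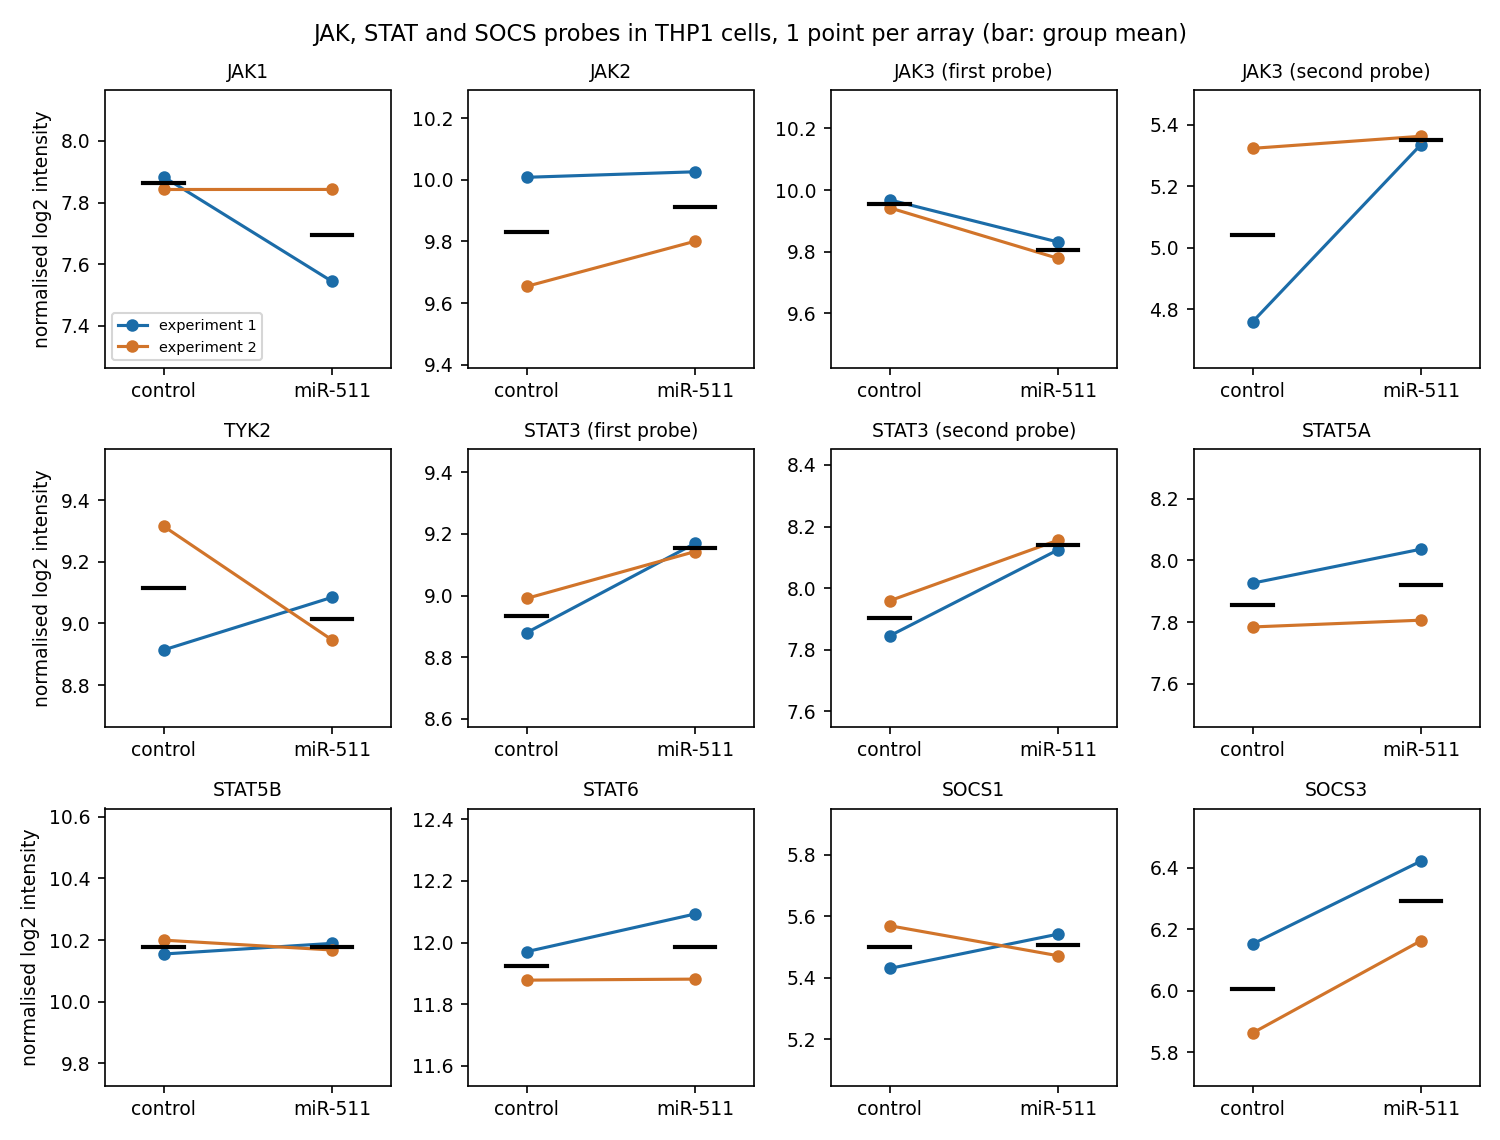
Normalised log2 intensity (vertical axis, 1 panel per probe, each panel spanning the same range of log2 units) with control mimic and with miR-511 mimic. Points are arrays, lines join the arrays of an experiment and black bars are group means; both STAT3 probes and SOCS3 slope upwards in both experiments, the JAK3 first probe slopes downwards, and for JAK2 and SOCS3 the experiments lie apart.

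STAT3, the factor downstream of IL-6 and IL-10 receptors, came closest to the threshold of the 12 probes by both of its probes, though neither passed it. The first probe gave 8.88 and 8.99 with the control mimic and 9.17 and 9.14 with miR-511 mimic. Both miR-511 arrays were above both control arrays. The difference was 0.29 in experiment 1 and 0.15 in experiment 2, on average 0.22 (SE 0.10, 95% interval -0.04 to 0.49).

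The second STAT3 probe gave 7.84 and 7.96 with the control mimic and 8.12 and 8.16 with miR-511 mimic, again with no overlap. The difference was 0.28 in experiment 1 and 0.20 in experiment 2. The mean was 0.24 (SE 0.10, 95% interval -0.03 to 0.50), a ratio of 1.18. Both probes of STAT3 were thus higher with miR-511 mimic in both experiments, by similar amounts. With normexp background correction the first probe passed narrowly, at a difference of 0.19 (limma unadjusted p = 0.0492). The second did not pass, at 0.18. With this correction 265 of the 22638 tested probes passed. The STAT3 probes measure the same RNA samples, so they are repeated readings and not further replicates.

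The second STAT3 probe was printed 10 times on each array, which shows the error within an array. In experiment 1 its spots ran from 7.70 to 7.94 (median 7.85) with the control mimic and from 7.61 to 8.32 (median 8.17) with miR-511 mimic. In experiment 2 they ran from 7.82 to 8.04 (median 7.98) with the control mimic and from 8.10 to 8.26 (median 8.14) with miR-511 mimic. In experiment 2 all miR-511 spots were above all control spots, and in experiment 1 all but the lowest of them were. The standard deviation between spots was 0.05 to 0.08 on 3 arrays and 0.19 on the miR-511 array of experiment 1, which held that low spot. With spot medians the differences were 0.31 and 0.17, and their mean of 0.24 (SE 0.10) did not pass the test either. Spots of one array are technical copies and did not enter the test as replicates.

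**Figure D2:**
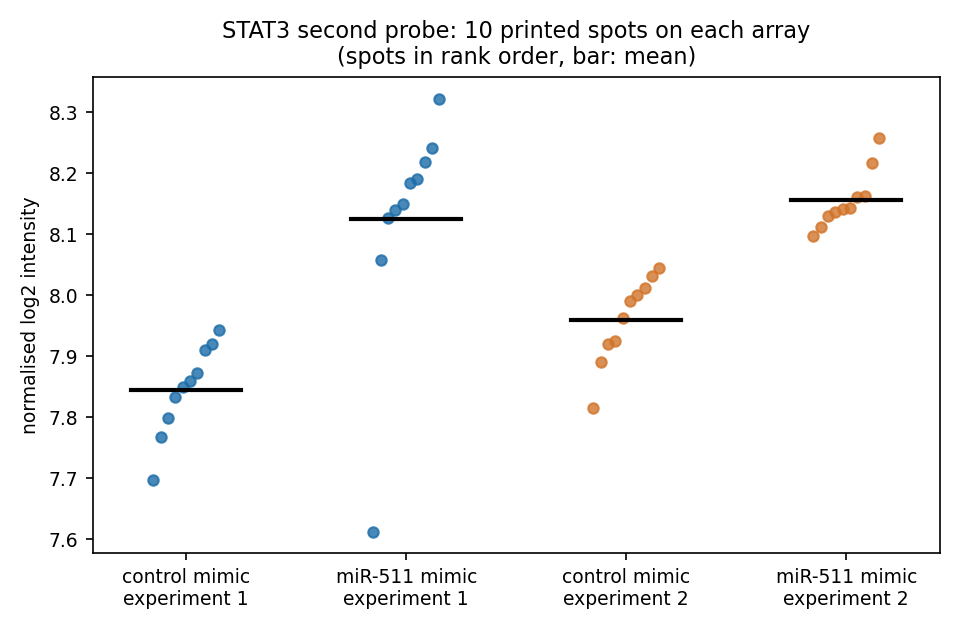
Normalised log2 intensity (vertical axis) of the 10 spots of the STAT3 second probe on each array, in rank order, with the mean as a black bar. The miR-511 spots lie above the control spots of the same experiment except for 1 spot at 7.61 in experiment 1.

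STAT5A and STAT5B, which answer to GM-CSF, IL-3 and other cytokines, are neighbours of STAT3 on chromosome 17. STAT5A had values of 7.93 and 7.78 with the control mimic and 8.04 and 7.81 with miR-511 mimic. Both arrays of experiment 1 were the higher ones and the treatments overlapped, with a difference of 0.07 (SE 0.13, 95% interval -0.29 to 0.42).

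STAT5B had values of 10.15 and 10.20 with the control mimic and 10.19 and 10.17 with miR-511 mimic. All 4 arrays lay within a narrow band, and the control arrays were the lowest and the highest. The difference was 0.00 (SE 0.09). Its 95% interval ran from -0.24 to 0.25, so that true differences within this range are compatible with the values.

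STAT6, the factor of IL-4 and IL-13 signalling, had values of 11.97 and 11.88 with the control mimic and 12.09 and 11.88 with miR-511 mimic. Only the miR-511 array of experiment 1 stood above the others. The difference was 0.12 in experiment 1 and 0.00 in experiment 2, on average 0.06 (SE 0.12, 95% interval -0.26 to 0.39).

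SOCS1, which binds the kinases themselves and is best known as a brake on interferon signalling, had values of 5.43 and 5.57 with the control mimic and 5.54 and 5.47 with miR-511 mimic. The control arrays enclosed the miR-511 arrays. The difference was 0.11 in experiment 1 and -0.10 in experiment 2, with a mean of 0.01 (SE 0.10, 95% interval -0.28 to 0.29).

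SOCS3, an inhibitor of IL-6 and G-CSF receptor signalling and a known target gene of STAT3, had values of 6.15 and 5.86 with the control mimic and 6.42 and 6.16 with miR-511 mimic. The groups did not overlap, but only just, because the miR-511 array of experiment 2 was hardly above the control array of experiment 1. Within each experiment the difference was similar, 0.27 in experiment 1 and 0.30 in experiment 2. Its mean was 0.28 (SE 0.16, 95% interval -0.16 to 0.73), a ratio of 1.22, and it did not pass the test across arrays. With the experiment as a block, which removes the gap between the experiments, the SE fell to 0.08 and the difference passed the unadjusted threshold, but not after adjustment (limma, Benjamini-Hochberg adjusted p = 0.969). Over all tested probes 3.95% passed at this threshold with the block, and 1 of the 12 did.

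In the comparison of the treatments, 2.20% of the 22638 tested probes passed an unadjusted limma p of 0.05, and 0 of the 12 did. After Benjamini-Hochberg adjustment over all tested probes 0 passed, which is 0% of the array, and the adjusted p of every one of the 12 probes was 1.00 (limma). An exact permutation test of 2 arrays against 2 cannot go below p = 0.333. The differences of the 12 probes ran from -0.17 (JAK1) to 0.31 (JAK3 second probe), with 9 above and 3 below 0, where 12157 of the 22638 tested probes were above 0. Their median was 0.06 against 0.01 over all tested probes. Without the miR-511 array of experiment 1, 4 of the 12 were above 0 and their median was -0.02, and without that of experiment 2 the median was 0.17. With all arrays, the median of their sizes was 0.13 against 0.08. The median SE of the 12 probes was 0.12, the same as that of all tested probes.

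The groups did not overlap, with miR-511 mimic higher, for 4 probes, both of STAT3, the JAK3 second probe and SOCS3, where 15.6% of all tested probes did so. They did not overlap in the other direction for the JAK3 first probe, where 10.1% of all tested probes did so. A higher value with miR-511 mimic in both experiments was seen for 7 of the 12 probes and for 29.3% of all, and a lower value in both for 1 of the 12 and for 21.7% of all. The 7 were those of JAK2, STAT5A, STAT6 and SOCS3, both of STAT3 and the JAK3 second probe, of which JAK2, STAT5A, STAT6 and the JAK3 probe had a difference below 0.05 in one of the experiments.

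**Figure D3:**
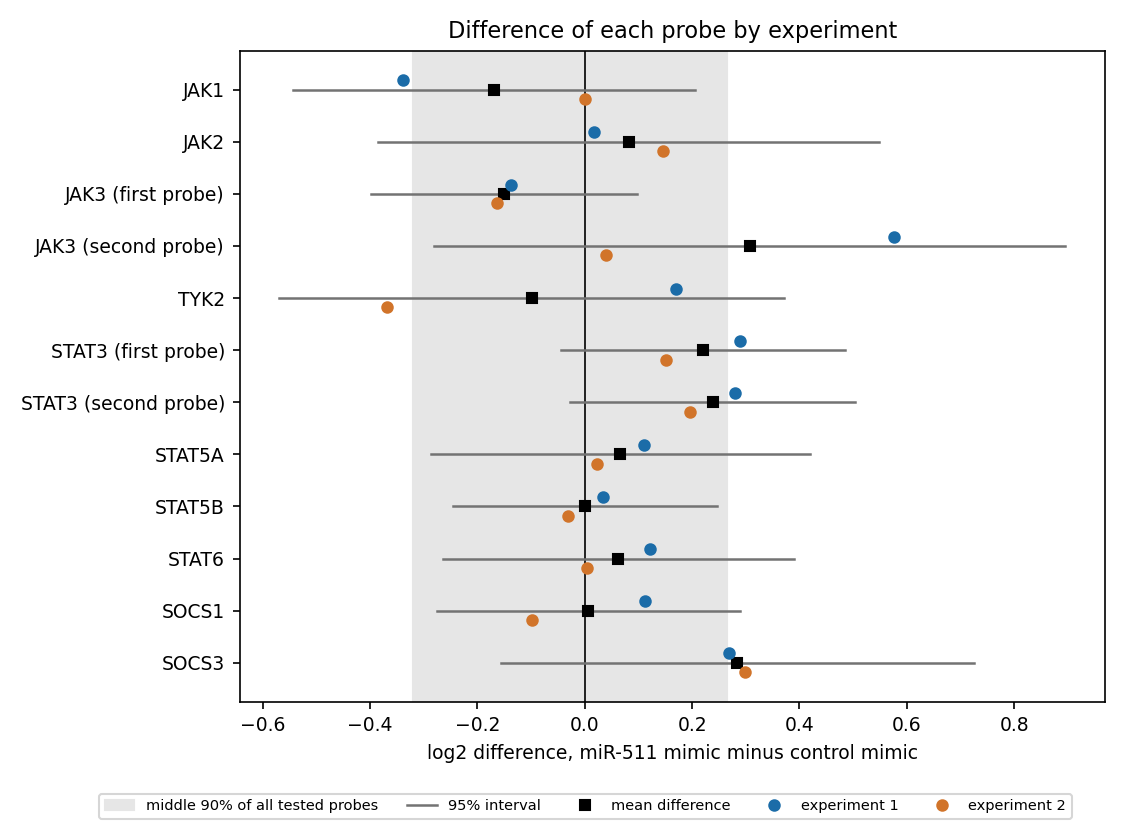
Log2 difference, miR-511 mimic minus control mimic (horizontal axis), of each probe in experiment 1 (blue) and experiment 2 (orange), with the mean as a black square, its 95% interval as a line, and the middle 90% of all tested probes (-0.32 to 0.26) as a grey band. All 12 intervals cross 0, and the experiments lie closest together for the JAK3 first probe and SOCS3.

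The sizes depend on the normalisation, because the arrays differed in brightness. Before normalisation between arrays the median log2 ratio of miR-511 mimic to control mimic over all tested probes was -0.24 in experiment 1 and 0.12 in experiment 2. Against these, the unnormalised ratios of the STAT3 first probe were 0.03 and 0.26, those of its second probe 0.01 and 0.31, and those of SOCS3 -0.02 and 0.43. In each experiment they were thus above the median of the array, but in experiment 1 they were close to 0 in themselves. The JAK3 first probe, at -0.38 and -0.06, was below the median in both. After normalisation the direction of the STAT3, SOCS3, JAK1 and JAK3 differences was that given above under every scaling tried, but not the size. With normexp background correction the difference of SOCS3 was 0.07, that of the JAK3 second probe 0.06 and that of JAK1 -0.09, each smaller by over 1.5 times, while the STAT3 probes gave 0.19 and 0.18. Those of SOCS1 and STAT5B, both near 0, changed sign under another scaling or background correction.

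The experiments could also be compared with each other, which shows how far they lay apart. Between experiment 2 and experiment 1, 13.6% of all tested probes passed an unadjusted limma p of 0.05, and 1 of the 12 did. It was JAK2, which fell by 0.29 on the log2 scale (SE 0.08), in a direction where 8.15% of all tested probes passed. It did not pass after adjustment (limma, Benjamini-Hochberg adjusted p = 0.322). The call was lost when any array but that of miR-511 mimic in experiment 2 was left out. SOCS3 differed between the experiments by -0.27 and STAT5A by -0.19, and neither passed. SOCS3 passed with the replicate block (the treatment as a term), and STAT5A with scaling to the 75th percentile. For both genes the control array of experiment 2 was the lowest of the 4. The JAK3 second probe differed by 0.30 in the opposite direction without passing, through the low control array of experiment 1. For STAT3 the experiments differed by 0.04 and 0.07 only, less than the treatments did. The median size of the experiment difference was 0.13 for the 12 probes and 0.12 over all tested probes.

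**Figure D4:**
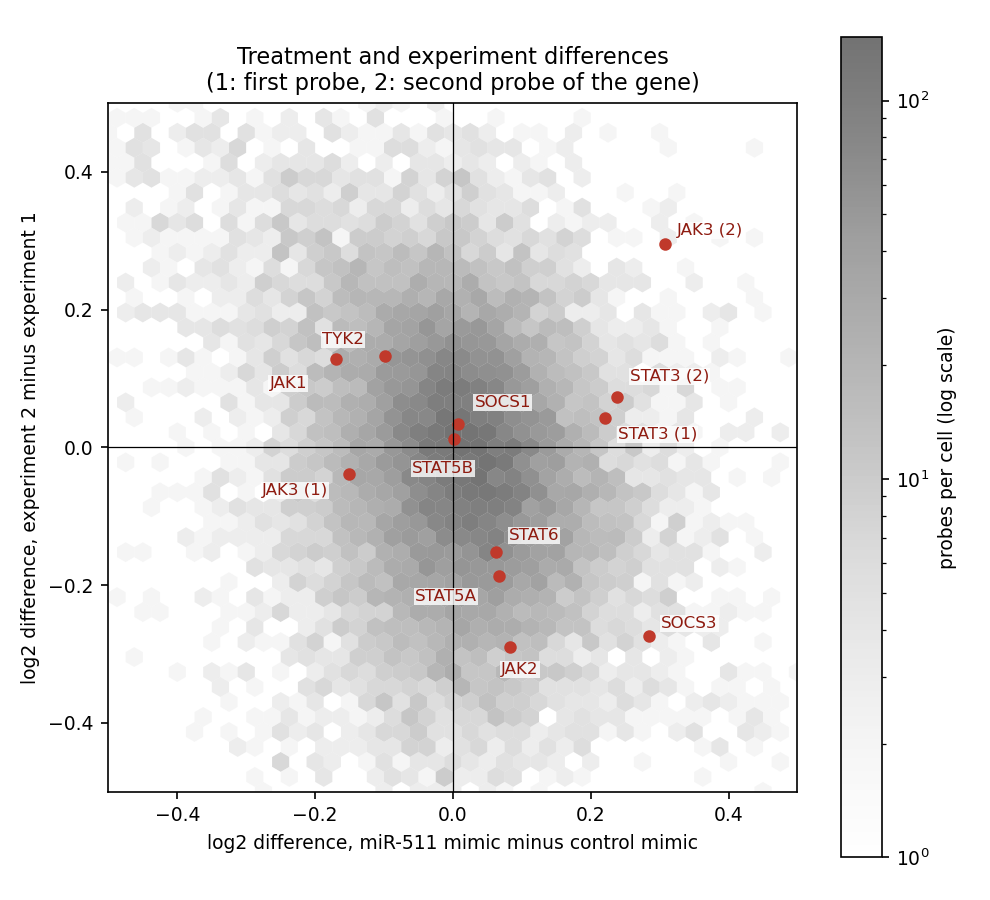
Treatment difference (horizontal axis, log2) against experiment difference (vertical axis, log2) of the 12 probes (red), over the density of the tested probes within 0.5 of 0 on both axes (grey, log scale; 1855 probes lie outside). STAT3 lies to the right near the zero line of the experiment difference, JAK2 lies low near the zero line of the treatment difference, and SOCS3 is displaced on both axes.

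The other STAT, SOCS and CIS genes were followed as a list of 8 genes. STAT4, a factor of IL-12 signalling in lymphocytes, was at background on all arrays by both of its probes. The 7 tested probes covered STAT2, CISH, SOCS2, SOCS4, SOCS5, SOCS6 and SOCS7. None passed the treatment test (0 of 7 against 2.20% of all tested probes), and their median difference was -0.035. CISH and SOCS2, which are also feedback inhibitors, differed by 0.01 (95% interval -0.24 to 0.26) and -0.09 (95% interval -0.34 to 0.16). CISH gave 10.19 and 10.23 with the control mimic and 10.20 and 10.24 with miR-511 mimic, so that its arrays lay closely together. SOCS6 was the only one of the list to pass between the experiments, where it rose by 0.53 from experiment 1 to experiment 2 (SE 0.08, limma adjusted p = 0.224). This is 1 of 7 probes (14.3%), near the 13.6% of all tested probes. The scanner intensities of SOCS6 were small, between 19.5 and 35 units before normalisation.

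Of 35 receptor genes, 29 had a tested probe. For 5 of the 35, IL2RA, OSMR, LIFR, GHR and IL5RA, no probe was well above background on any array. None of the 49 tested receptor probes passed the treatment test and their median difference was 0.02. Between the experiments 12 of them passed (24.5% against 13.6% of all), 9 of them lower in experiment 2. Among these was 1 of 7 probes of IL6ST, the gp130 chain that IL-6 family cytokines share upstream of STAT3, at -0.24 (limma adjusted p = 0.345). The other IL6ST probes ran from -0.20 to 0.13 without passing, so no direction can be given for this gene. With the experiment as a block 3 receptor probes passed the treatment test, 1 each of IL21R (0.36), IL2RB (-0.33) and CSF2RB (-0.84), each with a limma adjusted p of 0.969. These are 3 of 49 probes, where 3.95% of all tested probes passed with the block. The other CSF2RB probe differed by 0.16, so that no direction can be given for this gene.

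Transcripts of most ligands were not detected. Of 25 cytokine genes that signal through JAKs, 19 had no probe well above background on any array, among them IL6, IL10, IL4, IL13, IFNG, CSF2 and EPO. The 6 tested probes were 2 of OSM and 1 each of IL23A, IL12A, LIF and IL27, and none passed the treatment test. OSM, an IL-6 family cytokine, was higher with miR-511 mimic in both experiments by both probes after normalisation. The mean differences of 0.23 (95% interval -0.07 to 0.52) and 0.25 (95% interval -0.02 to 0.52) did not pass. The OSM probe at 0.25 had small scanner intensities, between 15.6 and 19.3 units before normalisation. IL12A differed by experiment, with a level higher by 0.86 in experiment 2 (limma adjusted p = 0.218). Its scanner intensities were small, between 19.3 and 39.9 units before normalisation.

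A list of 11 other inhibitors held phosphatases such as PTPN1, PTPN2, PTPN6, PTPN11 and PTPRC, the PIAS genes, SH2B3 and CBL. All 11 genes were tested, with 19 probes. None passed the treatment test and the median difference was 0.03. Between the experiments 3 probes passed (15.8%, near the 13.6% of all tested probes), those of PIAS2 (0.40), PTPN2 (-0.29) and PTPRC (-0.30), while other probes of PTPN2 and PTPRC did not.

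Target genes are transcribed when STAT dimers bind near them. Of 21 target genes of STAT3, STAT5 and STAT6, 20 were on the array under that name and 17 were tested, with 19 probes. Of these 19 probes 2 were past the threshold, 1 in each direction, where 2.20% of all tested probes passed. Both of the 2 probes belong to ALOX15, a lipoxygenase induced by IL-4 through STAT6. One ALOX15 probe gave 4.65 and 4.85 with the control mimic and 5.46 and 5.17 with miR-511 mimic, with no overlap. It rose by 0.57 (SE 0.15, limma adjusted p = 1.00). The other gave 3.80 and 3.77 with the control mimic and was at least 1.26-fold lower with miR-511 mimic, where neither array was well above background (limma adjusted p = 1.00). It entered the test only through the group where it was high, so this call is no sign of a change. The bound sets the control mean against the higher of the detection limit and the probe's own value on each miR-511 array. No direction can be given for ALOX15 as a gene. The median difference of the 19 probes was 0.01. Other genes of the list differed on average by 0.24 (FOS), 0.16 (JUNB), 0.10 (CEBPB) and 0.00 (BCL3). From experiment 1 to experiment 2 the sign changed for FOS (0.54 to -0.06), JUNB (0.37 to -0.05) and BCL3 (0.05 to -0.05). On average lower with miR-511 mimic were MCL1 (-0.36), BCL6 (-0.26), PIM1 (-0.25) and CCND1 (-0.22). MCL1 also changed sign (0.06 to -0.79), and PIM1 was lower mainly in experiment 1 (-0.48, against -0.02 in experiment 2). BCL6 and CCND1 were lower in both experiments. None of these other genes passed the treatment test, and of the 19 probes 11 were above 0 and 8 below. Between the experiments BCL3 (-0.29) and PIM1 (0.51) passed, 2 of the 19 probes, where 13.6% of all tested probes passed.

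Interferon target genes are transcribed when interferon receptors activate their kinases, JAK1 and TYK2. Of 22 such genes 21 were tested, with 26 probes. None passed the treatment test, and the median treatment difference was -0.06. Between the experiments 10 probes passed, 38.5% against 13.6% of all tested probes, and all 10 were lower in experiment 2. In all, 25 of the 26 probes were lower in experiment 2, with a median of -0.38. Over all 22638 tested probes 11855 were lower in experiment 2, with a median of -0.009.

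IFI6, a mitochondrial protein induced by interferon, had values of 8.51 (control) and 8.63 (miR-511) in experiment 1 and of 7.96 and 7.87 in experiment 2. Both arrays of experiment 1 were above both of experiment 2. It fell by 0.66 (SE 0.08, limma adjusted p = 0.218). IRF9, a part of the interferon-induced complex ISGF3, fell by 0.58 (limma adjusted p = 0.226). IRF7 differed by -0.39 and ISG15 by -0.36, and both passed the unadjusted threshold. STAT2, another part of that complex, differed between the experiments by -0.16, which did not pass. SOCS1, the inhibitor most tied to interferon, differed by 0.03 (SE 0.08) between the experiments, which did not pass.

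CXCL10, an interferon-induced chemokine, was well above background on the 2 control arrays only, by either probe. One CXCL10 probe gave 4.57 and 3.62 with the control mimic and 3.23 and 1.57 with miR-511 mimic. The other gave 3.73 and 4.00 with the control mimic and 3.64 and 1.15 with miR-511 mimic, so that in experiment 1 it differed by only -0.09. Both probes entered the test only through the group where they were high, so no call is given for them.

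**Figure D5:**
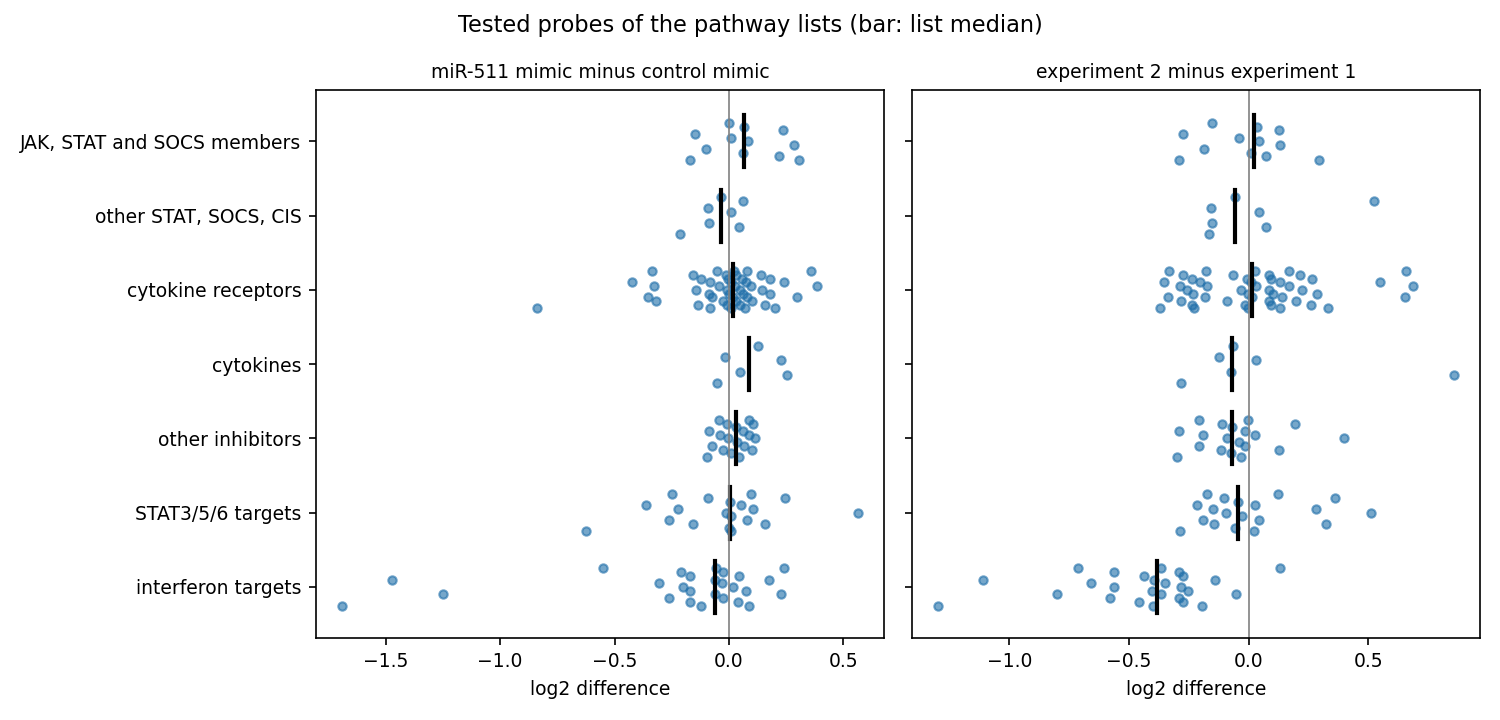
Log2 difference (horizontal axis) of every tested probe of each list (points) with the list median (black bar), for miR-511 mimic minus control mimic on the left and experiment 2 minus experiment 1 on the right. The list medians of the treatment difference lie between -0.06 and 0.09, while the interferon targets lie to the left in the experiment difference with a median of -0.38.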

How the data were processed

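Transcripts of THP1 cells were profiled on 4 single-dye Agilent arrays. The authors deposited 1 scanner file per array, made with Agilent Feature Extraction (10.7.3.1 per the file headers, 10.5.1.1 per the submitters' processing notes), in which the processed intensity of a spot is background-subtracted and not scaled between arrays. A deposited series table holds log2 values normalised between arrays, with a median of 6.54 on every array, used here only as an alternative. The RefSeq gene table (GRCh38.p14) was used for names only and gave all 12 probes the symbol of the file.

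In R 4.3.3 with limma 3.58.1, intensities of 43118 non-control spots were log2 transformed, 232 to 301 marked outlier spots per array were left out, the arrays were quantile normalised, and the spots of a probe were averaged. A probe with several spots counted as well above background where more than 50% of them were. Probes well above background on both arrays of a treatment were tested (22638 of 34127, 18001 genes) with lmFit and eBayes (4.14 total degrees of freedom, two-sided), at p below 0.05 unadjusted and after Benjamini-Hochberg adjustment. No spot was saturated. The precision is limited by the number of arrays. The functions were tested on simulated data.

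All probes of the 10 genes are given, the first probe of a gene being that with the highest mean. Of the other lists, each gene with a probe past the unadjusted threshold in the treatment comparison is named, and further names were chosen after their values were seen. The genes and lists were chosen with earlier results of these data known. LYZ and FCGR1A were not found under these names on the array, and some listed genes are not reported here.

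The labels number the experiments, and the study calls them independent, so the number pairs the arrays. Deviations of same-numbered arrays from their treatment means correlated at 0.271 across probes. The block was an alternative, as were scaling to the 75th percentile, normexp correction with an offset of 50, and other filters on dim probes. So were marked spots kept, the deposited table, an intensity trend, and an ordinary t-test of the array values in place of limma. Further alternatives were each array left out, and spot medians for STAT3, which were added after the values were seen.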

Additional observations from a re-analysis of the deposited data

How the results depend on the processing

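The adjusted threshold was passed by 0 probes in the treatment comparison under every alternative run (498 probes at the unadjusted threshold as reported). With the experiment as a block 894 probes passed unadjusted in the treatment comparison, 1 of the 12 among them (SOCS3, 0.28). In the experiment comparison 2615 passed, 2 of the 12 among them (JAK2 and SOCS3), and the block changed no other call of the 12. With normexp correction 265 passed, 1 of the 12 (STAT3 first probe, 0.19), and STAT5B became -0.0278. Without the filter 1029 passed, and with an intensity trend 285. An ordinary t-test of 2 arrays against 2, in place of limma, passed 708 of the 22638 tested probes in the treatment comparison. Among them was 1 of the 12 (JAK3 first probe, -0.15). In the experiment comparison it passed 2561 probes and 0 of the 12. This t-test is not the study's own rule, which was limma's moderated t-test with a further t-test over identical replicate probes. 75th percentile scaling passed 3173 probes in the experiment comparison, 2 of the 12 among them (JAK2 and STAT5A), and turned SOCS1 to -0.0147. The lower share of the unadjusted treatment calls was 42.4% as reported and 54.4% with that scaling.

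Leaving out 1 array at a time gave 713 to 1438 probes (783 without miR-511 mimic replicate 1, 912 without control mimic replicate 1, 1438 without miR-511 mimic replicate 2), 0 to 1 of the 12 in the treatment comparison and 0 to 1 in the experiment comparison. The JAK3 second probe passed without control mimic replicate 2 (0.59). In the experiment comparison JAK2 passed only without miR-511 mimic replicate 2, the JAK3 second probe without miR-511 mimic replicate 1 and JAK1 without control mimic replicate 1. The range was -0.10 to 0.26 for JAK2, -0.30 to 0.10 for TYK2, -0.048 to 0.181 for STAT5A, -0.0213 to 0.0246 for STAT5B, -0.042 to 0.166 for STAT6 and -0.0615 to 0.0763 for SOCS1, so that these have no settled direction. It was 0.17 to 0.28 and 0.18 to 0.30 for the STAT3 probes, 0.14 to 0.43 for SOCS3, -0.18 to -0.12 for the JAK3 first probe, 0.0251 to 0.591 for its second probe and -0.322 to -0.0205 for JAK1. A lone array was assumed to vary like the other group. The cause of these changes was not tested. SOCS1, SOCS3 and the JAK3 second probe had the smallest signals over background.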
